A study of Mus musculus with 4 samples.

Results

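The genes described here encode proteins of the primary granules of neutrophils, with some partners of the same progenitor stage: Mpo, Elane, Prtn3, Ctsg, Ms4a3, Srgn, Gstm1 and Igsf6. They were chosen by symbol, and all 8 were found, each as 1 row, among the 32285 gene rows counted. That choice was made with earlier results of these data known, so the rows are not independent of the data. Counts came from single CD45.2+Kit+ bone marrow cells, CD45.2 being a form of a leukocyte surface protein and Kit the stem cell factor receptor of blood progenitors. The cells were taken 10 weeks after a transplantation that all groups share. Each group, control, Mll3SI, Mll4SI or Mll3/4SI, was 1 library, named wt, mll3KI, mll4KI or dKI. The labels do not spell out the alleles, the strain, the age or number of the mice, which animals received the cells, or what the 2 hashtag antibodies marked. MLL3 and MLL4, encoded by Kmt2c and Kmt2d, are histone H3 lysine 4 methyltransferases that act at enhancers, and the series' title names myeloid identity among the things it addresses.

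Primary granules, also called azurophil granules, are filled at the promyelocyte stage, the earliest stage at which a neutrophil precursor can be told by its granules. Their transcripts appear in granulocyte-monocyte progenitors, peak in promyelocytes and are shut off before the secondary granules are made. Mpo encodes myeloperoxidase, which makes hypochlorous acid from hydrogen peroxide. Elane (neutrophil elastase), Prtn3 (proteinase 3) and Ctsg (cathepsin G) are serine proteases of the granule. Srgn is the core protein of serglycin, the proteoglycan that packs proteases in granules of many blood cells. Ms4a3 is a membrane protein used to mark granulocyte-monocyte progenitors, Gstm1 is a glutathione S-transferase, and Igsf6 is a membrane protein of the immunoglobulin superfamily.

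In mouse build GRCm38 (GENCODE M21) all 8 are protein-coding genes. Elane (chr10:79886247-79888215, plus strand) and Prtn3 (chr10:79874476-79883174, plus strand) are neighbours with 3073 bases between them. Srgn lies elsewhere on the same chromosome (chr10:62493833-62527451, minus strand). Mpo lies at chr11:87793581-87804413 (plus strand), Ctsg at chr14:56099881-56102574 (minus strand) and Ms4a3 at chr19:11629496-11640851 (minus strand). Gstm1 lies at chr3:108012255-108017973 and Igsf6 at chr7:121064067-121074572, both on the minus strand. A UMI (unique molecular identifier) stands for 1 captured RNA molecule, counted over the gene.

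The 4 genes with the highest levels, the peroxidase and the 3 serine proteases, each hold the letters GAGGAA, the core bound by the myeloid factor PU.1, in the 250 bases before their RefSeq start. The stretches of those promoters that no annotated exon overlaps are shown because the genes move together across cell types. They are written 5′ to 3′ on the gene's strand, with the GAGGAA matches in capitals. The regions are chr11:87793534-87793580 (plus strand) for Mpo, chr10:79886062-79886246 (plus strand) for Elane, chr10:79879417-79879613 (plus strand) for Prtn3 and chr14:56102575-56102824 (minus strand) for Ctsg, all from RefSeq on GRCm38.p6.
Mpo: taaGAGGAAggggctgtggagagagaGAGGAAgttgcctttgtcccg
Elane: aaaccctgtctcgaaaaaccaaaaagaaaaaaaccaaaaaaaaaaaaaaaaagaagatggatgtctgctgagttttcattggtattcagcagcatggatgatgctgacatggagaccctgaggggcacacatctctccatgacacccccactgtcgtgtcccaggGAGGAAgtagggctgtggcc
Prtn3: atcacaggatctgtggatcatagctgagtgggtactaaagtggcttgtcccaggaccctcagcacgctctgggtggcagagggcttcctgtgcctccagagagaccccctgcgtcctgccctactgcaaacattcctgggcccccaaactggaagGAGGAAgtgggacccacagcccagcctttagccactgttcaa
Ctsg: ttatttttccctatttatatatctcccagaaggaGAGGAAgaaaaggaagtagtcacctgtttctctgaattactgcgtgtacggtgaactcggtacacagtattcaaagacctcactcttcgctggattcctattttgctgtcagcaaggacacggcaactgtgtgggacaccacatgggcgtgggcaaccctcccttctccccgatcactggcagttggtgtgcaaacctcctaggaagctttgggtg

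Counted from the RefSeq start, the first base of the match stood at position -85 in Elane and -95 in Prtn3, the neighbouring pair. It stood at -216 in Ctsg, and Mpo held 2 matches, at -247 and -224. Both strands were searched, and 23.3% of 32851 RefSeq mouse promoters of the same length held GAGGAA. Igsf6 held 1 match. The promoters of Ms4a3, Srgn and Gstm1 held none, which says only that these letters are not in those windows. The C/EBP letters TTNCNNAA were in none of the 4 promoters shown, against 36.8% of all promoters, while Igsf6 held 5 partly overlapping matches and Ms4a3 held 1. Of the 2 starts of Srgn, the second also held 5 and the first none. A match of letters is a description and not a binding site.

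Of 7887 (control), 9370 (Mll3SI), 11678 (Mll4SI) and 7524 (Mll3/4SI) barcodes, 6743, 8023, 10186 and 6755 cells were kept, with 140546094 to 177753607 gene UMIs per library before filtering and a median of 12800 to 19185 per cell. Between 54 and 75 barcodes of a library, counted before filtering, also occurred in another library. Kit (100 to 112 CPM) and Ptprc, the gene of CD45 (179 to 312 CPM), were present in every library. These sums do not check the labelled sort, since Ptprc counts do not tell CD45.2 from other forms and a library sum does not show Kit in single cells. Kmt2c was at 110 to 147 CPM and Kmt2d at 33.3 to 41.3 CPM. The labels do not say what the alleles should do to these transcripts, so the levels do not check the groups. The libraries differ in sex-linked transcripts. Xist, a transcript of the inactive X chromosome, was at 0.03 and 0.19 CPM in control and Mll3SI and at 1148 and 1360 CPM in Mll4SI and Mll3/4SI, so for the latter 2 libraries genotype and sex cannot be told apart.

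Cells were grouped into marker-defined classes after clustering on genes that included none of the 8, and the names were rebuilt here. A level is given in CPM, the gene's UMIs per 1000000 gene UMIs, summed over all cells that a library has in a class. An order between genes is an order of counted UMIs, since capture was not compared between genes and it is not known whether intronic reads were counted. Early granulocyte-like cells (with Ctsc, Nkg7 and other promyelocyte markers) were 719 in control, 1275 in Mll3SI, 558 in Mll4SI and 296 for Mll3/4SI. In the same order they were 10.66%, 15.89%, 5.48% and 4.38% of the kept cells. Intermediate granulocyte-like cells (with Fcnb and Chil3) numbered 460, 844, 413 and 550, and late granulocyte-like cells (with Ltf, Camp and Ngp) 3013, 2988, 6858 and 2910. HSC/MPP-like cells, resembling stem cells and multipotent progenitors, numbered 1002, 1016, 887 and 369, and monocyte-like cells 721, 1044, 905 and 280. In Mll3/4SI, clusters 16 (872 cells), 20 (682 cells) and 22 (415 cells) stay unnamed, while the other libraries held between 0 and 8 cells in each. Cluster 16 had 3 granulocyte and 2 monocyte markers, too small a lead for a name. Cluster 20 had 9 HSC/MPP markers and 4 of megakaryocytes, and cluster 22 had 6 basophil/mast markers, Cpa3 and Mcpt8 among them, and 2 of granulocytes. These last 2 scored for a class but were given no name because at least 95% of their cells came from 1 library and they held 2 or more markers of another class. With 1 library per group there is no replicate and no test. Every interval is a 95% interval that covers counting error only.

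In every library, 7 of the 8 genes had their highest granulocyte level in the early class and their lowest in the late class, and Igsf6 did not. In early cells the 8 genes together made up 3.91% of all gene UMIs in control, 4.20% in Mll3SI, 4.13% in Mll4SI and 3.86% for Mll3/4SI. The corresponding values were 1.98% to 2.12% in monocyte-like cells and 0.995% to 1.26% in HSC/MPP-like cells. Erythroid-like cells, which should lack these transcripts and stand for the level of free RNA, had 0.109%, 0.176%, 0.157% and 0.094%. Late granulocyte-like cells had 0.098%, 0.116%, 0.089% and 0.146%. Srgn was the largest part of the erythroid-like sum, with 672 to 869 CPM, and Igsf6 was the largest part of the late sum, so free RNA is judged gene by gene. For Elane the erythroid-like level was 54.0, 207, 238 and 37.2 CPM and for Mpo 79.0, 170, 151 and 64.6 CPM, higher in Mll3SI and Mll4SI than in the other 2 libraries.

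**Figure D1:**
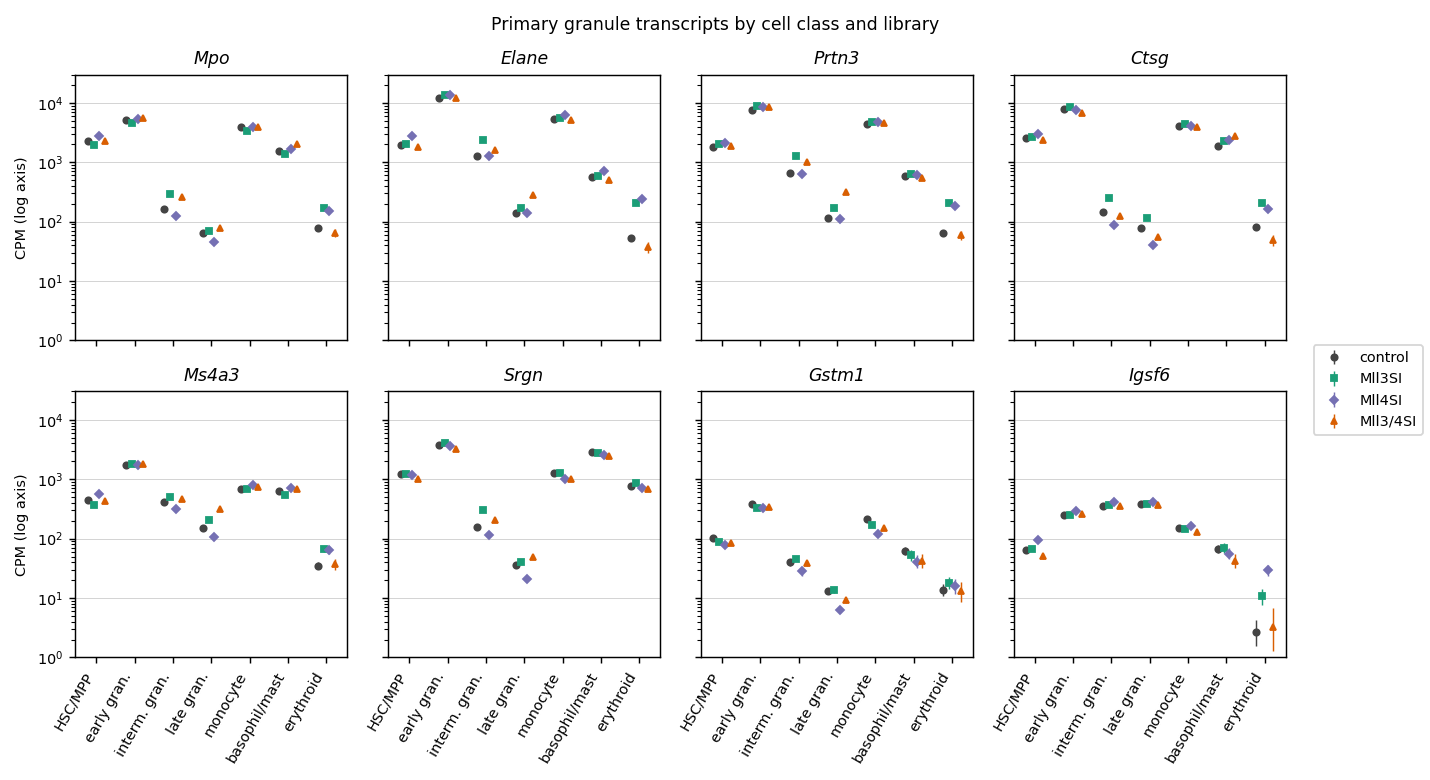
Level of each of the 8 genes (CPM, log axis) in the marker-defined classes, 1 point per library, with control, Mll3SI, Mll4SI and Mll3/4SI in separate colours and 95% Poisson intervals as bars (counting error only). In 7 of the 8 panels the points of all libraries are highest in early granulocyte-like cells and drop toward the late class, while Igsf6 is higher in the intermediate and late classes.

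The granule proteases carried most of the early signal. Elane, the gene of neutrophil elastase, stood at 12208 CPM in control, 13558 in Mll3SI, 13812 in Mll4SI and 12172 for Mll3/4SI early cells. Prtn3, proteinase 3, had levels of 7583, 8836, 8449 and 8447 CPM in that order. Ctsg, cathepsin G, had 8003, 8665, 7582 and 6756 CPM. Elane was the highest of the 3 proteases in all 4 libraries, while Prtn3 was below Ctsg in control and above it in the other 3.

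Mpo, the peroxidase, was at 5184, 4501, 5372 and 5497 CPM in early cells, lowest in Mll3SI. Srgn, the serglycin core protein, was at 3713, 4054, 3674 and 3281 CPM, lowest in Mll3/4SI. Ms4a3 differed little between libraries, at 1728, 1833, 1752 and 1823 CPM. Gstm1, at 389, 326, 322 and 342 CPM, and Igsf6, at 252, 249, 292 and 258 CPM, were the least abundant.

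None of the 8 genes passed 1.5-fold in early cells of Mll3SI, Mll4SI or Mll3/4SI against control, in either direction. Among the 7950 genes of at least 10 CPM in this class, 0.365% were higher and 0.566% lower by 1.5-fold or more in Mll3SI, 1.79% and 1.26% in Mll4SI, and 1.19% and 0.616% for Mll3/4SI. With such small background shares, 0 of 8 is close to what the background gives. The ratios of the 8 genes, as log2 of CPM + 1 against control, ran from -0.25 (Gstm1) to 0.22 (Prtn3) in Mll3SI, from -0.27 (Gstm1, interval -0.33 to -0.21) to 0.21 (Igsf6) in Mll4SI, and from -0.24 (Ctsg, interval -0.26 to -0.23) to 0.16 (Prtn3) in Mll3/4SI. The 3 comparisons share the control library. The median ratio of the 8 genes was 0.10, 0.04 and 0.01, beside -0.03, -0.03 and -0.04 over all genes of the class. Between cells carrying Hashtag1 and cells carrying Hashtag2 of the same library, the largest difference of a gene was 0.09 to 0.20 in this class. The largest difference from control of a gene was 0.09 to 0.27, an overlapping range. For Ms4a3 alone it was smaller than the hashtag difference (0.09 against 0.10).

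Not scaled for depth, an early cell carried on average 922 UMIs of the 8 genes in control, 773 in Mll3SI, 826 in Mll4SI and 1053 for Mll3/4SI. Its median share of gene UMIs was 3.98%, 4.29%, 4.15% and 3.88%.

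The drop after the early stage differed by gene. Ctsg had the steepest, with an early level 53.8, 34.2, 83.7 and 54.2 times the intermediate level in control, Mll3SI, Mll4SI and Mll3/4SI. Mpo followed at 31.8, 15.1, 42.1 and 21.0 times, and Srgn at 23.8, 13.3, 31.4 and 15.8 times. For Elane the ratio was 9.50, 5.68, 10.8 and 7.50, so that in intermediate cells it was the most abundant of the 8. Ms4a3 had the smallest ratio of these 7 genes, at 4.23, 3.58, 5.64 and 3.92. For each of the 7 genes the early-to-intermediate ratio was lowest in Mll3SI and highest in Mll4SI.

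Igsf6 did not follow this course. Its early level was 0.70, 0.68, 0.70 and 0.72 times its intermediate level in control, Mll3SI, Mll4SI and Mll3/4SI. In late cells it was at 381, 377, 417 and 367 CPM, against 2.7 to 29.1 CPM in erythroid-like cells, and it was the most abundant of the 8 in the late class. Late granulocyte-like cells gave 59.3%, 47.9%, 74.5% and 56.5% of all its UMIs.

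In intermediate cells of Mll3SI, 5 of the 8 genes (Mpo, Elane, Prtn3, Ctsg and Srgn) were higher than in control by 1.5-fold or more. Elane was at 1284 CPM in control, 2387 in Mll3SI, 1280 in Mll4SI and 1622 for Mll3/4SI, a log2 ratio of 0.89 for Mll3SI (interval 0.86 to 0.93). Mpo was at 162, 298, 127 and 260 CPM, with a ratio of 0.87 in Mll3SI, and Srgn at 155, 305, 116 and 207 CPM, with a ratio of 0.97. Of the 6918 genes of this class, 0.723% were higher and 1.08% lower in Mll3SI, and the median ratio was 0.82 over the 8 genes and 0.01 over all.

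The excess was smaller in the median cell than in the sum. The 8 genes made up 0.542% of the intermediate class UMIs in Mll3SI and 0.322% in control, but the median cell had 0.161% and 0.128%. In erythroid-like cells of Mll3SI, Mpo was at 170 CPM and Ctsg at 209 CPM, against 298 and 252 CPM in these intermediate cells, and Elane was at 207 against 2387 CPM. The hashtags gave different sizes within Mll3SI: the ratio to control cells of the same hashtag was 1.27 for Elane with Hashtag1 and 0.58 with Hashtag2, and for Mpo 1.29 and 0.65. With the erythroid-like level subtracted, 3 of the 8 genes stayed higher by 1.5-fold or more and the ratio of Ctsg turned to -0.61. Srgn could not stay, since erythroid-like cells held more of it (756 CPM in control and 869 in Mll3SI) than intermediate cells did.

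In Mll3/4SI intermediate cells, 2 of 8 genes (Mpo at 0.68 and Prtn3 at 0.59) were past 1.5-fold and higher, where 2.28% of all genes were higher and 3.47% lower. In Mll4SI, 1 of 8 was past it: Ctsg at 89.6 CPM against 148 in control, a ratio of -0.72 and below the 164 CPM of that library's erythroid-like cells, where 4.81% of genes were higher and 5.29% lower. The clusters behind the class differ by library. Most intermediate cells of control (272) and Mll3SI (643) were in cluster 10, most of Mll4SI (353) in cluster 15, and the largest number in Mll3/4SI (241) in cluster 26, which held almost no cells of the others. Within cluster 10, Elane was at 1434, 2374, 3925 and 2348 CPM, and within cluster 15 at 1010, 2442, 763 and 1347 CPM. Mll4SI was the highest library in the former, with 54 cells, and the lowest in the latter. With the 8 genes and the markers left in the clustering, the intermediate ratio of Ctsg in Mll4SI turned to 1.47.

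**Figure D2:**
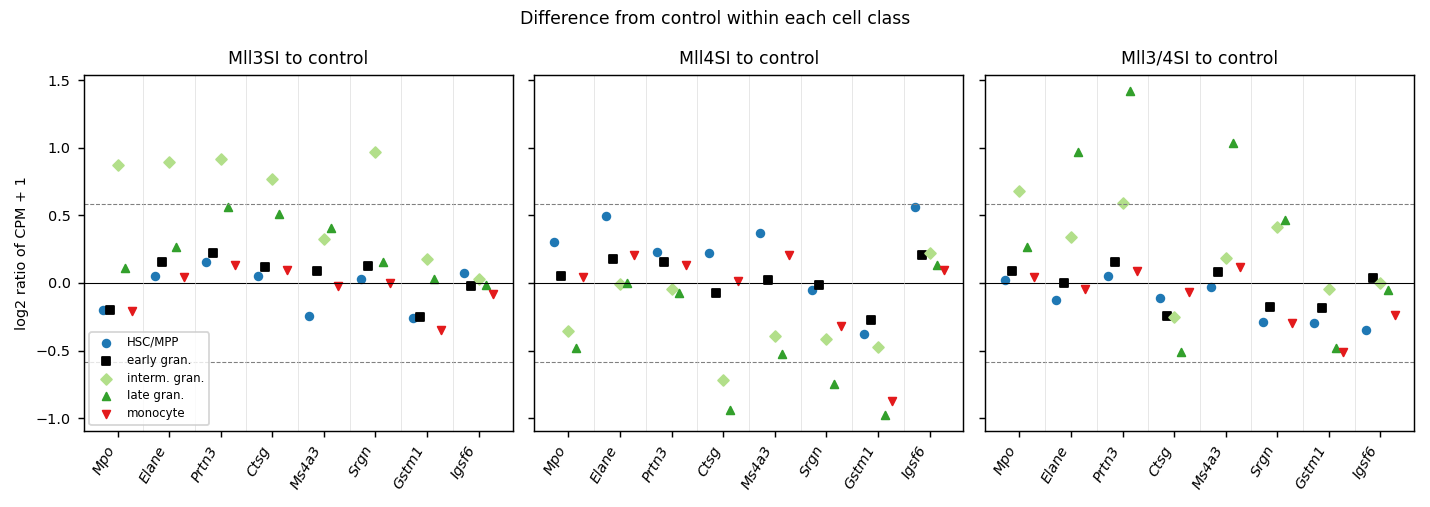
Log2 ratio of CPM + 1 to control for each of the 8 genes, 1 panel per library and 1 marker per class, with dashed lines at 1.5-fold and no error bars. The points of early granulocyte-like cells stay within the lines in all 3 comparisons, and those of intermediate and late cells spread beyond them.

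Late granulocyte-like cells held small amounts of most of these transcripts. Mpo was at 64.1 CPM in control, 69.1 in Mll3SI, 45.5 in Mll4SI and 77.3 for Mll3/4SI. A late cell of control carried on average 0.96 UMIs of Mpo and an erythroid-like cell 1.61, so Mpo in late cells of control was not above the level of free RNA. In Mll3/4SI the late level of 77.3 CPM was above the 64.6 CPM of erythroid-like cells, and it was 124 CPM in clusters 12 and 28. Ctsg was likewise not above free RNA in control, with 1.20 UMIs per late cell and 1.66 per erythroid-like cell. Srgn was at 35.8, 40.0, 20.9 and 49.8 CPM in late cells and at 672 to 869 CPM in erythroid-like cells, which serves as no free RNA level for a gene made in many blood cells.

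Late cells of the libraries sat in different clusters. Control was mainly in clusters 1 (1334 cells), 2 (839) and 9 (434), where Mll4SI had 35, 57 and 18 cells, and Mll4SI was mainly in clusters 0 (2853), 5 (1536), 4 (1401) and 17 (763), where control had 12, 48, 235 and 27. In Mll4SI late cells, 3 of 8 genes (Ctsg, Srgn and Gstm1) were lower than in control by 1.5-fold or more, and none was higher. Of the 6929 genes of the class, 1.85% were higher and 2.38% lower, and in Mll3SI, where 0 of 8 passed, 0.447% and 0.592%. Ctsg was at 79.6 CPM in control, 114 in Mll3SI, 40.9 in Mll4SI and 55.7 for Mll3/4SI, a ratio of -0.94 in Mll4SI. Gstm1 was at 13.1 CPM in control and 6.2 in Mll4SI, a ratio of -0.97. The levels of Ctsg and Gstm1 were below the erythroid-like level of that library (164 and 15.8 CPM), so that level may hold more than free RNA. How much of each value is free RNA was not tested, and neither ratio is read as a change of expression. Srgn, with a ratio of -0.75, has no such reference.

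In Mll3/4SI late cells, 3 of 8 genes (Elane, Prtn3 and Ms4a3) were higher than in control by 1.5-fold or more, where 1.80% of all genes were higher and 2.45% lower. Prtn3 was at 115 CPM in control, 171 in Mll3SI, 109.5 in Mll4SI and 310 for Mll3/4SI, a ratio of 1.42 (interval 1.38 to 1.47). Elane was at 142, 170, 142 and 279 CPM, a ratio of 0.97, and Ms4a3 at 154, 204, 106 and 316 CPM, a ratio of 1.03. These are above free RNA: a late Mll3/4SI cell carried 5.07 Elane UMIs and an erythroid-like cell 0.82. The values came from 2 clusters, 12 and 28, with 960 and 194 Mll3/4SI cells and almost none of other libraries. In these 1154 cells Elane was at 489, Prtn3 at 575 and Ms4a3 at 524 CPM, and in the other 1756 late Mll3/4SI cells at 124, 115 and 163 CPM. Without clusters that draw at least 95% of their cells from 1 library, the ratios were -0.21 for Elane, -0.021 for Prtn3 and 0.07 for Ms4a3, so none stayed past 1.5-fold. When each cell instead took the class of its nearest control cells, 51.46% of cluster 12 fell in the intermediate class.

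HSC/MPP-like cells held lower levels of all 8 genes than early cells did, and in each library Ctsg was the highest of the 8. Ctsg was at 2590 CPM in control, 2688 in Mll3SI, 3019 in Mll4SI and 2402 for Mll3/4SI. Mpo was at 2247, 1953, 2766 and 2285 CPM, and Elane at 1966, 2034, 2766 and 1804 CPM. None of the 8 passed 1.5-fold in the 3 comparisons, where 0.337% of 8599 genes were higher and 0.454% lower in Mll3SI, 1.59% and 1.35% in Mll4SI, and 1.02% and 0.826% for Mll3/4SI. The largest ratios were 0.56 for Igsf6 and 0.49 for Elane, both in Mll4SI. Erythroid-like cells of Mll4SI also held more of both than those of control. By CPM + 1, the early level was 68.7 times the erythroid-like level in control and 9.73 times in Mll4SI for Igsf6. For Elane it was 222 and 57.9 times. In Mll4SI HSC/MPP-like cells, 13 of 14 secondary granule genes were higher by 1.5-fold or more, with a median ratio of 2.13. How much of the Igsf6 and Elane ratios is free RNA was not tested.

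Within the class, the proteases and Mpo were lowest in cluster 19, marked by the stem cell genes Mecom and Hlf, and highest in cluster 11. In cluster 19 Elane was at 61.9, 83.4, 48.0 and 22.3 CPM in control, Mll3SI, Mll4SI and Mll3/4SI, and Mpo at 222, 221, 234 and 229 CPM. In cluster 11 they were at 3155, 3307, 3850 and 2794 CPM and at 3128, 2738, 3644 and 3189 CPM. With every cell thinned to 3000 UMIs, 13.4%, 21.0%, 10.6% and 6.2% of cluster 19 cells had an Elane UMI, and 11.2%, 18.1%, 11.2% and 9.8% of erythroid-like cells did (unthinned 53.6%, 49.5%, 35.3% and 33.3% against 55.5%, 55.0%, 44.1% and 39.8%). By share of cells, Elane in cluster 19 was thus near the erythroid-like level. Mpo was above it, found in 32.1%, 32.9%, 35.3% and 27.7% of the cells against 12.5%, 17.7%, 13.4% and 11%. By CPM, erythroid-like cells held Elane at 54.0, 207, 238 and 37.2, more than cluster 19 in every library but control. That level may thus hold more than free RNA, and how much of Elane in cluster 19 is free RNA was not tested. Srgn was already at 989 to 1107 CPM in cluster 19.

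Monocyte-like cells carried all 8 genes, at Elane levels of 5395, 5559, 6216 and 5229 CPM in control, Mll3SI, Mll4SI and Mll3/4SI. Mpo was at 3855, 3330, 3964 and 3980 CPM, and Gstm1 at 217, 170, 118 and 152 CPM. Only Gstm1 passed 1.5-fold, with a ratio of -0.87 in Mll4SI. The background was 0.342% of 8190 genes higher and 0.366% lower in Mll3SI, 1.55% and 1% in Mll4SI, and 1.03% and 0.586% for Mll3/4SI. Gstm1 was below control in early, monocyte-like and HSC/MPP-like cells of all 3 libraries, with ratios from -0.18 to -0.87. Basophil/mast-like cells, of which there were 171, 138, 116 and 65, had more Srgn (2846, 2737, 2521 and 2506 CPM) than Elane (573, 579, 719 and 498 CPM). Elane does not stand for all the proteases there. The early level was 19.2 to 24.4 times the basophil/mast-like level for Elane and 12.9 to 15.7 times for Prtn3, but 2.46 to 4.26 times for Ctsg.

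Over all kept cells the levels follow the class mix as well as the levels within classes, and the sum alone cannot tell fewer cells of a class from less RNA per cell. Elane was at 2985 CPM in control, 4203 in Mll3SI, 2509 in Mll4SI and 2734 for Mll3/4SI. In Mll3SI, where early cells were more frequent, 0 of 8 passed 1.5-fold, with 0.367% of 8167 genes higher and 0.735% lower. In Mll4SI, 2 of 8 (Srgn at -0.68 and Gstm1 at -0.96) were past it and lower, with 2.23% of genes higher and 3.31% lower. In Mll3/4SI, Ms4a3 was higher (0.65) and Gstm1 lower (-0.80), with 1.92% and 1.79%. Ms4a3 was at 518, 648, 413 and 811 CPM. Without clusters that draw at least 95% of their cells from 1 library, these ratios were -0.19 (Srgn) and -0.51 (Gstm1) in Mll4SI and -0.044 (Ms4a3) and -0.48 (Gstm1) in Mll3/4SI, none past 1.5-fold.

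The source of the transcripts differed most in Mll3/4SI. In control, 38.6% of Mpo UMIs came from early granulocyte-like, 33.1% from monocyte-like and 23.8% from HSC/MPP-like cells. In Mll3/4SI these classes gave 14.0%, 11.3% and 7.3%, and the unnamed clusters 16 and 22 gave 39.4% and 22.7%. For Elane, early cells gave 54.7% in control, 61.3% in Mll3SI, 41.9% in Mll4SI and 25.3% for Mll3/4SI, where clusters 16 and 22 gave 33.6% and 16.2%.

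**Figure D3:**
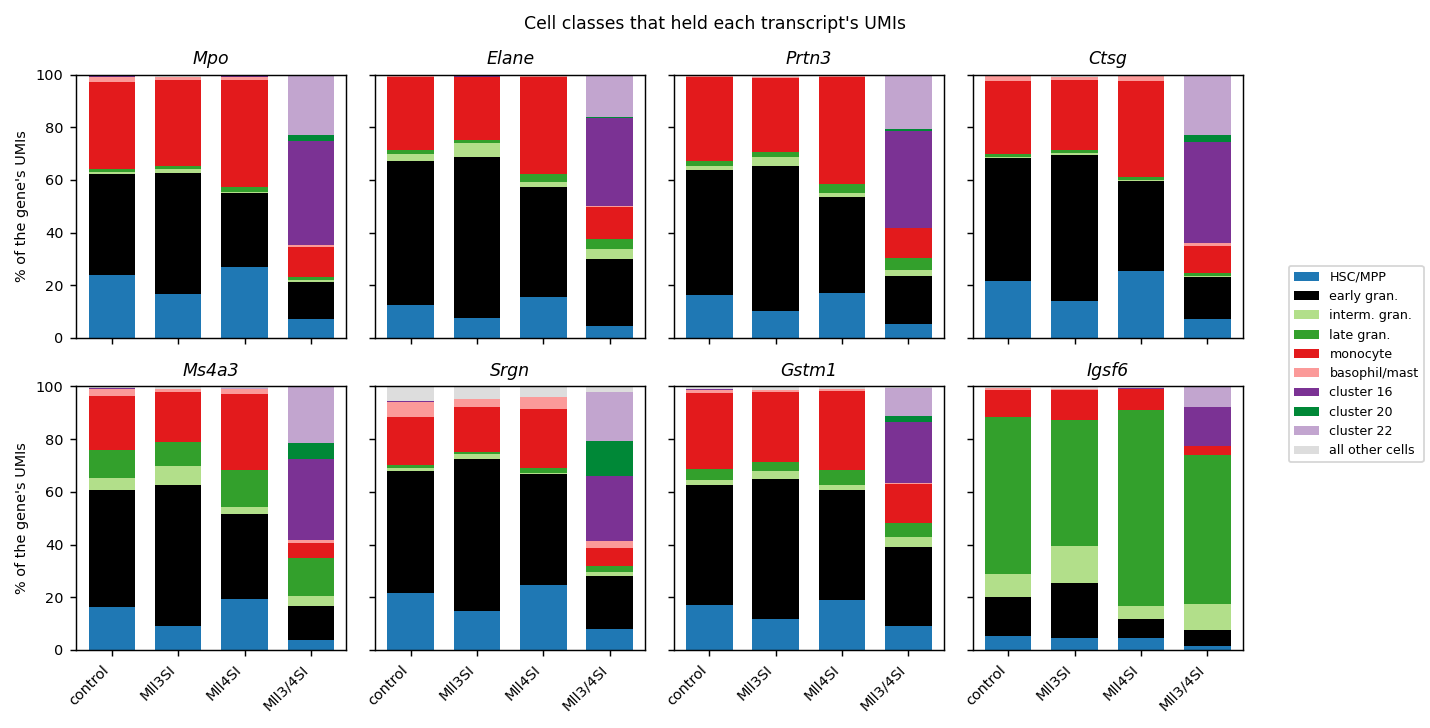
Share of each gene's UMIs (percent of all kept cells) that came from each class or unnamed cluster, 1 bar per library and gene. In Mll3/4SI clusters 16 and 22 supply 39.4% and 22.7% of the Mpo UMIs and 33.6% and 16.2% of the Elane UMIs.

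Clusters 16 and 22 of Mll3/4SI expressed the granule genes at high levels with another balance between them. Mpo was at 6452 CPM in cluster 16 and 5730 in cluster 22, against 5497 in the early class of the same library. Elane was at 6726 and 5002 CPM against 12172. Srgn was at 1662 and 1907 CPM against 3281, and Gstm1 at 111 and 77.8 CPM against 342. These 3 (Elane, Srgn and Gstm1) were lower by 1.5-fold or more in each cluster and none of the 8 was higher, where 10.1% of 8210 genes were higher and 4.36% lower in cluster 16, and 12% of 8197 genes higher and 4.66% lower in cluster 22. Prtn3 (7073 and 6072 against 8447 CPM), Ctsg (6725 and 6195 against 6756) and Ms4a3 (1845 and 1930 against 1823) stayed within 1.5-fold. Both clusters were made of 1 library, so cluster and library cannot be told apart.

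The ratio of Elane to Mpo levels showed this balance. It was 2.36, 3.01, 2.57 and 2.21 in early cells of control, Mll3SI, Mll4SI and Mll3/4SI, and 1.40, 1.67, 1.57 and 1.31 in monocyte-like cells. It was 1.04 in cluster 16 and 0.873 in cluster 22, near the 0.789 to 1.04 of HSC/MPP-like cells. After thinning to 3000 UMIs, 99.1% and 99.3% of the cells of clusters 16 and 22 had an Mpo UMI, and 87.2% and 71.9% an Elane UMI (unthinned 99.7% and 100% for Mpo, 94.4% and 88.4% for Elane). By nearest control cells, cluster 16 fell into the early granulocyte-like (37.04%), HSC/MPP-like (32.91%) and monocyte-like (28.67%) classes.

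Cluster 20 of Mll3/4SI lay at the other end. Elane was at 34.5 CPM, below the 37.2 CPM of that library's erythroid-like cells, and Mpo at 517, Ctsg at 574 and Ms4a3 at 478 CPM. Of the 8 genes, 6 were lower than in the HSC/MPP-like class of the library by 1.5-fold or more and none was higher, where 7.1% of 8644 genes were higher and 6.37% lower. Srgn, at 1168 CPM against 1003, and Ms4a3, against 434, were the 2 that were not. That class pools clusters. In its cluster 19, marked by Mecom and Hlf, Elane, Mpo and Srgn of Mll3/4SI were lower than in cluster 20. For Elane and Mpo the lower level of cluster 20 thus does not hold against cluster 19. Levels of the other members in cluster 19 are not given here.

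**Figure D4:**
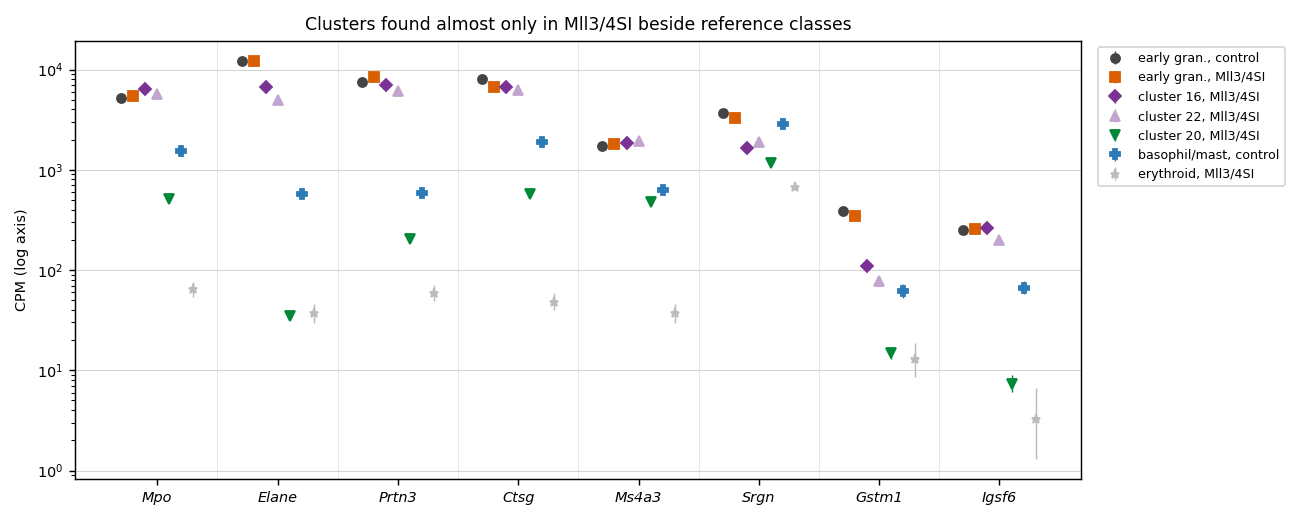
Levels of the 8 genes (CPM, log axis) in the unnamed clusters 16, 20 and 22 of Mll3/4SI beside early granulocyte-like cells of control and Mll3/4SI, basophil/mast-like cells of control and erythroid-like cells of Mll3/4SI, with 95% Poisson intervals as bars. Clusters 16 and 22 lie close to the early class except for Elane, Srgn and Gstm1, and Elane in cluster 20 lies at the erythroid-like level.

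The genes that process and store granule proteins are given from a list of 22, of which 21 were measured at 1 CPM or more in early cells. None was past 1.5-fold in Mll3SI or Mll3/4SI, and 2 were higher in Mll4SI: Lyz2, a lysozyme, at 1.57 and Fuca1, a lysosomal fucosidase, at 0.68. Of 12 measured regulators of the granulocyte course, none was past it in any of the 3 libraries. The median ratio of the processing genes was -0.05 in Mll3SI and -0.07 in each of the other 2, and that of the regulators -0.03, 0.03 and -0.03 in the usual order. Of 13 secondary granule genes, 6 were higher in Mll3SI, 11 in Mll4SI (Retnlg at 2.94 and Ltf at 2.74) and 3 in Mll3/4SI, where 2 were lower, with medians of 0.52, 1.87 and 0.49. Of all 7950 genes of the class, 0.365%, 1.79% and 1.19% were higher and 0.566%, 1.26% and 0.616% lower. Such background shares, here and below, are of genes at 10 CPM or more, while list genes needed 1 CPM, so the 2 are not fully alike. Secondary granule transcripts were also higher in erythroid-like cells, for 9 of 14 genes in Mll3SI (median 0.76, against 1.14% of 8330 genes higher) and for 14 of 14 in Mll4SI (median 3.56, against 3.6%), and how much of the early cells' value is free RNA was not tested.

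In cluster 16, set against early cells of Mll3/4SI, 4 of 21 processing genes were higher and 1 lower by 1.5-fold or more, and 6 of 14 regulators were higher and 2 lower, with median ratios of 0.17 and 0.42 beside 0.07 over all genes, of which 10.1% were higher and 4.36% lower. Ctsc, which encodes the protease that activates the granule serine proteases, was at 54.1 against 23.0 CPM. Nkg7, a granule membrane protein, was at 162 against 621 CPM. Ctsc, Nkg7 and Gfi1 were among the markers used to name the early class, so their levels there are not independent of that name. Irf8, a regulator of monocyte and dendritic cell fate, was at 174 CPM in cluster 16 and 149 in cluster 22 against 16.5 in early cells, and Cebpe, needed for secondary granules, at 89.0 and 43.5 against 206 CPM. Gfi1, a repressor needed for neutrophil formation, was at 102 and 62.8 against 140.3 CPM, within 1.5-fold in cluster 16. Monocyte-like cells of Mll3/4SI held more Irf8, at 496 CPM. The regulators named are examples, and most of those past 1.5-fold are not named. In cluster 22 the counts were 4 higher and 3 lower of 21 processing genes, and 5 higher and 3 lower of 14 regulators, against 12% and 4.66% of all genes. The secondary granule gene Fcnb was at 19.4 and 13.6 CPM in the 2 clusters against 291.

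The 8 genes were not equally tied to each other. Over 81 sums of a library and a cluster, which share libraries and depth, the Pearson correlation of a gene's log2 level with the mean of the other 7 was 0.98 for Prtn3, 0.95 for Mpo, 0.93 for Elane and Gstm1, 0.92 for Ctsg, 0.88 for Ms4a3, 0.64 for Srgn and 0.07 for Igsf6. The 5 genes outside the list with the highest correlation with the mean of all 8, of 8352 compared, were Dmkn (0.90), P4hb (0.89), Gm11505 (0.89), Hsd17b1 (0.89) and Cst7 (0.88), of which Dmkn had also served as a stage marker. The gene of a protein disulfide isomerase, P4hb, was at 420, 398, 403 and 396 CPM in early cells of control, Mll3SI, Mll4SI and Mll3/4SI. Dmkn was at 135, 158, 53 and 64 CPM there.

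Cell by cell within the early class, Elane and Prtn3, the neighbours on chromosome 10, had the highest value in control, Mll3SI and Mll3/4SI, and in Mll4SI it was level with that of Prtn3 and Srgn (0.71). Their Pearson correlation of log-scaled UMIs was 0.74, 0.75, 0.71 and 0.65 over the 719, 1275, 558 and 296 cells. Mpo was tied to Ctsg (0.38, 0.46, 0.44 and 0.42) and little to Elane (0.18, 0.32, -0.06 and 0.14). In cluster 16 these values were 0.80, 0.73 and 0.55. Mpo and Elane had 0.65, 0.63, 0.61 and 0.58 in monocyte-like cells, so their tie is not particular to cluster 16. Cells share a library and their depth, so these are descriptions. Some genes next to the members were near 0 in early cells. Cfd, 2638 bases after Elane, was at 0.77, 0.38, 0.54 and 0.74 CPM, and Lpo, 2015 bases from Mpo, at 0.88, 0.43, 1.88 and 1.24 CPM. Mcpt8, a mast cell protease gene 14608 bases from Ctsg, was at 18.3, 26.2, 8.77 and 15.1 CPM.

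The surface antibodies gave a readout that the clusters did not use. Granulocyte-like cells of each library were split into quartiles by the share of CD117 (Kit protein) among antibody UMIs. In the highest quartile the 8 genes made up 3.02% of gene UMIs in control, 4.11% in Mll3SI, 1.53% in Mll4SI and 1.70% for Mll3/4SI, and in the lowest 0.08%, 0.12%, 0.07% and 0.14%. The highest quartile was 67.7%, 94.9%, 27.7% and 30.5% early granulocyte-like, so the order of the libraries follows the share of early cells in it. The lowest quartile by CD11b, an integrin of mature myeloid cells, gave 2.97%, 3.85%, 1.77% and 1.65%.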

How the data were processed

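The members and lists were chosen with earlier results of these data known. The deposited values were UMI counts per feature and barcode, made by the authors with Cell Ranger 7.1.0 on mm10, per the submitters' processing notes. Whether intronic reads were counted is not given in the sources used here. The 4 libraries, 1 per group by sample title, were analysed in Python 3.11.15 (matplotlib 3.10.9, scanpy 1.11.5, numpy 2.4.6, igraph 0.11.9, pandas 2.3.3, leidenalg 0.10.2, scipy 1.17.1, scikit-learn 1.9.0). Cells with at least 500 genes, 1000 UMIs and at most 10% mitochondrial UMIs were kept, and the highest doublet scores (0.8% per 1000 cells) were removed. Clustering used 2000 variable genes without the 8 genes or any marker, 30 principal components, 15 neighbours and Leiden resolution 1, giving 33 clusters. The naming rule was set after the clusters were seen: at least 3 markers of a class (log2 fold of 1 or more against other cells), a lead of 2 over the next class and no other class with more markers among the top 10 genes. Shallow clusters with no own marker among those, and clusters with at least 95% of cells from 1 library and 2 or more markers of another class, stayed unnamed. UMIs were summed per class and library. Ratios are log2 of CPM + 1, which understates changes of low genes, and 1.5-fold counted as higher or lower. Intervals were exact (Poisson, conditional binomial, Clopper-Pearson). The ratio step was tested on simulated data. No p-value was computed. The named genes were the 8, the members of 3 lists, their neighbours, and the 5 genes of most similar pattern. Alternatives changed the clustering, cell filters, hashtags, free RNA, scaling, added CPM and fold. The labels do not say how many animals a library held.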

Additional observations from a re-analysis of the deposited data

Results flagged for a closer look

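The ratios of Ctsg, the gene of cathepsin G, had opposite signs in different classes of Mll4SI. Its log2 ratio to control was -0.72 in intermediate and -0.94 in late granulocyte-like cells and 1.0 in erythroid-like cells. The difference between the classes was not tested, since each group held 1 library. The erythroid-like value was used as the free RNA level, and Ctsg was at 164 CPM in these cells of Mll4SI against 81.5 CPM in control. The intermediate (89.6 CPM) and late (40.9 CPM) levels lay below the erythroid-like level, so that level may hold more than free RNA. How much of each value is free RNA was not tested, and the ratios are not read as changes of expression. The intermediate ratio was 1.47 with the 8 genes and the markers left in the clustering.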

How the results depend on the processing

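No paired analysis was possible because each group held 1 library, and for the same reason no replicate could be left out. The counts of the 8 genes past 1.5-fold in early cells were 0 under every alternative run. Of 144 single-gene ratios 19 were past 1.5-fold, and of their 285 values under alternatives 276 kept the direction and 241 stayed past it, while 90 of 1875 values of the others came past it. The causes of the changes below were not tested. The direction turned for Ctsg in Mll3SI intermediate cells with erythroid levels subtracted (-0.61), for Ctsg in Mll4SI intermediate cells with members and markers left in the clustering (1.47), and, without clusters of 1 library (an alternative chosen after seeing the data), for Elane (-0.21) and Prtn3 (-0.021) in late and Ms4a3 (-0.044) in all Mll3/4SI cells. With erythroid levels subtracted, 4 other ratios had no direction left, with both levels at 0: Srgn in Mll3SI intermediate cells and Ctsg, Srgn and Gstm1 in Mll4SI late cells.

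Counts of the 8 genes that moved by over 1.5 times are given next, as higher or lower than control. At Leiden resolution 0.5 the intermediate class had 3 higher and 0 lower in Mll4SI, and the late class 1 higher in Mll3SI, 5 lower in Mll4SI and 1 lower in Mll3/4SI. At resolution 2 there were 2 higher in Mll4SI HSC/MPP-like, 1 higher in Mll3SI and 2 lower in Mll4SI intermediate, and 3 higher in Mll3SI and 1 lower in Mll3/4SI late cells. With members and markers left in the clustering there were 2 higher in Mll4SI HSC/MPP-like and, in intermediate cells, 7 higher and 0 lower in Mll4SI and 7 higher in Mll3/4SI. With classes from the nearest control cells there were 1 higher and 1 lower in Mll3/4SI HSC/MPP-like, 6 lower in Mll4SI and 0 higher and 1 lower in Mll3/4SI intermediate, 1 higher in Mll3SI, 5 lower in Mll4SI and 2 lower in Mll3/4SI late, and 2 higher and 1 lower in Mll3/4SI monocyte-like cells.

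With no doublet removal there were 1 higher in Mll4SI HSC/MPP-like, 3 higher in Mll3SI and 0 higher in Mll3/4SI intermediate, and 2 higher in Mll3SI, 1 lower in Mll4SI and 5 higher in Mll3/4SI late cells. Without cells of both hashtags there were 2 lower in Mll4SI and 0 higher in Mll3/4SI intermediate cells. With Hashtag1 cells only there were 4 lower in Mll4SI and 0 higher in Mll3/4SI intermediate, 1 higher in Mll3SI and 1 lower in Mll3/4SI late, and 3 higher in Mll3SI, 1 lower in Mll4SI and 0 higher in Mll3/4SI over all cells. With Hashtag2 cells only there were 2 higher in Mll4SI HSC/MPP-like, 3 higher in Mll3SI and 1 higher in Mll3/4SI intermediate, and 1 lower in Mll3/4SI late cells.

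With erythroid levels subtracted there were 3 higher and 1 lower in Mll3SI and 4 lower in Mll4SI intermediate, 2 lower in Mll3SI and 5 higher in Mll3/4SI late, and 2 lower in Mll4SI monocyte-like cells. At 2-fold there were 0 in intermediate cells of all 3 libraries, 0 lower in Mll4SI late and monocyte-like cells, and 0 over all cells in Mll4SI and Mll3/4SI. With the mean over cells there were 2 lower in Mll4SI and 1 higher in Mll3/4SI intermediate, 1 higher in Mll3SI and 2 lower in Mll3/4SI late, and 2 higher in Mll3SI over all cells. With median-of-ratios scaling there were 1 higher in Mll3/4SI intermediate and 1 lower in Mll4SI over all cells. With 10 CPM added there was 1 lower in Mll4SI late cells. Without clusters of 1 library there were 0 higher and 2 lower in Mll3/4SI late cells, and 0 over all cells in Mll4SI and Mll3/4SI.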
